A study of Mus musculus with 6 samples.

Results

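The 8 transcription factors that direct the oligodendrocyte lineage were followed in the spinal cord of adult mice with and without Nogo-A. The members were fixed by name as Sox10, Olig1, Olig2, Myrf, Nkx6-2, Nkx2-2, Sox8 and Tcf7l2, and every probe set annotated to them was taken. This gave 13 probe sets of 45101 on the array, of which 9 probe sets of 7 genes were bright enough to be tested among 23525. Whole spinal cords came from 6 untreated male mice on a C57Bl/6 background aged 4 months, 3 wild type and 3 Nogo-A knockout, with 1 Affymetrix Mouse 430 2.0 array per animal. The question of the series was how gene expression in the intact adult cord differs when Nogo-A, an inhibitor of axon growth carried by myelinating oligodendrocytes, is missing. The labels call the mutant a Nogo-A knockout and name neither the deleted stretch of the gene nor whether the animals were littermates.

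Oligodendrocytes make the myelin of the central nervous system, and a small set of DNA-binding proteins sets and keeps their identity. Olig2 and Olig1 are basic helix-loop-helix proteins, of which Olig2 specifies precursors. Sox10, an HMG-box protein present from precursors onward, works with Olig2 and later with Myrf. Myrf is made as cells leave the precursor state and switches on and maintains genes of the myelin sheath. Sox8 is a close relative of Sox10 with overlapping roles. Nkx2-2 and Nkx6-2 are homeodomain proteins of the ventral cord that act in maturation and, for Nkx6-2, in mature oligodendrocytes. Tcf7l2 is the Wnt pathway factor that marks oligodendrocytes as they begin to differentiate.

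Myrf, Olig1 and the brightest Sox10 probe set were higher in knockout cord at an unadjusted p under 0.05, by folds of 1.59, 1.27 and 1.38. None of the 9 tested member probe sets passed after adjustment over all 23525 in limma, where 1 probe set passed, lower in knockout (0.00425%). In limma 3 of the 9 were higher and 0 lower at an unadjusted p under 0.05, against 4.78% higher and 3.48% lower of all tested probe sets. Those 3 lay above the 75th percentile of every array, and bright probe sets leaned higher in knockout. With a 75th percentile filter, 842 of 11676 probe sets were higher and 193 lower at that p, with a median log2 change of 0.075. Of the 5 member probe sets left there, 3 were higher. The methods' t-test, which also asked for a fold of at least 1.2, gave 2 higher, Myrf and Olig1, and 0 lower, against 2.74% higher and 2.45% lower of all tested probe sets. After Benjamini-Hochberg adjustment it gave 0. The 9 had a median log2 change of 0.24, against 0.034 over everything tested. Members at a log2 change above 0 numbered 7 of 9, against 56.1% of all tested probe sets. The members were chosen with earlier results of these arrays known, so these counts are a description.

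The arrays were checked first. Of the 5 probe sets of Rtn4, the gene that encodes Nogo-A, 1 read 3560.2, 2790.4 and 2802 in wild type and 78.2, 9.17 and 5.08 in knockout. It was the probe set that passed in limma (Benjamini-Hochberg adjusted p = 0.00975), and the other 4 were brighter in every knockout array than in every wild type array, which is no check of the labels. The 5th percentile of intensity was 5.26 to 19.98 on wild type arrays and 4.57 to 4.92 on knockout arrays, and wild type replicate 3, at 19.98, also had the lowest mean correlation with the other arrays, 0.930 against 0.952 to 0.961. Skeletal muscle RNA was high on wild type replicate 3 and knockout replicate 2, with Acta1, the muscle actin, at 2142 and 4593 there and 385 to 754 elsewhere. Without these 2 arrays, 3 of the 9 member probe sets were again higher at an unadjusted p under 0.05 and 0 lower, against 6.52% higher and 6.18% lower of all tested probe sets, in a comparison chosen after seeing the data. Dividing by the median of all probe sets in place of the tested ones moved the overall median log2 change from 0.034 to 0.23 and turned the calls at an unadjusted p under 0.05 from 1125 higher and 819 lower into 2805 and 265. The changes below all use the median of the tested probe sets. Spinal cord held the markers that its label implies. Mean wild type intensities were 39242 for Mbp of myelin, 29690.3 for Snap25 of synapses and 6310 for Gfap of astrocytes. Chat and Isl1, also listed as neuronal markers, were too dim to be tested.

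Promoter sequences were found in RefSeq for 5 of the 8 members, and those of the 4 whose probe sets could be tested are shown. Each is the 250 bases before the annotated start of transcription in build GRCm38.p6, read 5′ to 3′ on the gene's strand. Olig2 lies at chr16:91225300-91225549 on the plus strand, Nkx6-2 at chr7:139582798-139583047, Nkx2-2 at chr2:147186403-147186652 and Sox8 at chr17:25570687-25570936, all 3 on the minus strand. Capitals mark either of 2 motifs searched on both strands, the SOX core (CAAAG or CAATG, which SOX and TCF proteins of the HMG-box type can bind) and the E-box form CAGNTG of basic helix-loop-helix proteins.
Olig2: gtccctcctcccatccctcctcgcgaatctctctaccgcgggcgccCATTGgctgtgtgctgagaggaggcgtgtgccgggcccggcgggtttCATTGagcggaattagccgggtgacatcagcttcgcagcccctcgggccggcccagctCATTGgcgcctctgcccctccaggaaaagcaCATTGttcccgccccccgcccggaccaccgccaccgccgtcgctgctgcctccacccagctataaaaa
Nkx6-2: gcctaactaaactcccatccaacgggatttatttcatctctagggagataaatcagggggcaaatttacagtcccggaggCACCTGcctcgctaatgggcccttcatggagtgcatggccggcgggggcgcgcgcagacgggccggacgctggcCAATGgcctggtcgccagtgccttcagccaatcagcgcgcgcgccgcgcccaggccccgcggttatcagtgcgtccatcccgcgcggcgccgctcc
Nkx2-2: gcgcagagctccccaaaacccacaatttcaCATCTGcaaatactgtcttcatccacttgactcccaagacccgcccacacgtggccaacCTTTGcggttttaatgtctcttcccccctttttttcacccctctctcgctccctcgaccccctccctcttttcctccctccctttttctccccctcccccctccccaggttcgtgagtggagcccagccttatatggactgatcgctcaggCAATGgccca
Sox8: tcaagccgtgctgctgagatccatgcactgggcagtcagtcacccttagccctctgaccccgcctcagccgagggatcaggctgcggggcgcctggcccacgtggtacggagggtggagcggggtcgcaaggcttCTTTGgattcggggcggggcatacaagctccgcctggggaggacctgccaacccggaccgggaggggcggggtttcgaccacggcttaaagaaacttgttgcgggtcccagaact

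The Olig2 window holds 4 SOX cores, at -204, -157, -99 and -68 bases from the start, 2 of which overlap a CCAAT box. Nkx2-2 holds 2, and Nkx6-2 and Sox8 hold 1 each. That of Nkx6-2, at -96, also overlaps a CCAAT box. The E-box form is in Nkx2-2 and Nkx6-2, once each, and not in these windows of Olig2 or Sox8. Of 32851 promoter windows of the same length, 65.0% hold a SOX core and 44.8% the E-box form, so both are common. GC content was 66.8% in Olig2, 65.2% in Nkx6-2, 56.4% in Nkx2-2 and 65.6% in Sox8, against a median of 52.4% over all windows. The arrays measured transcripts and not binding, and a match of letters is a description of the sequence.

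**Figure D1:**
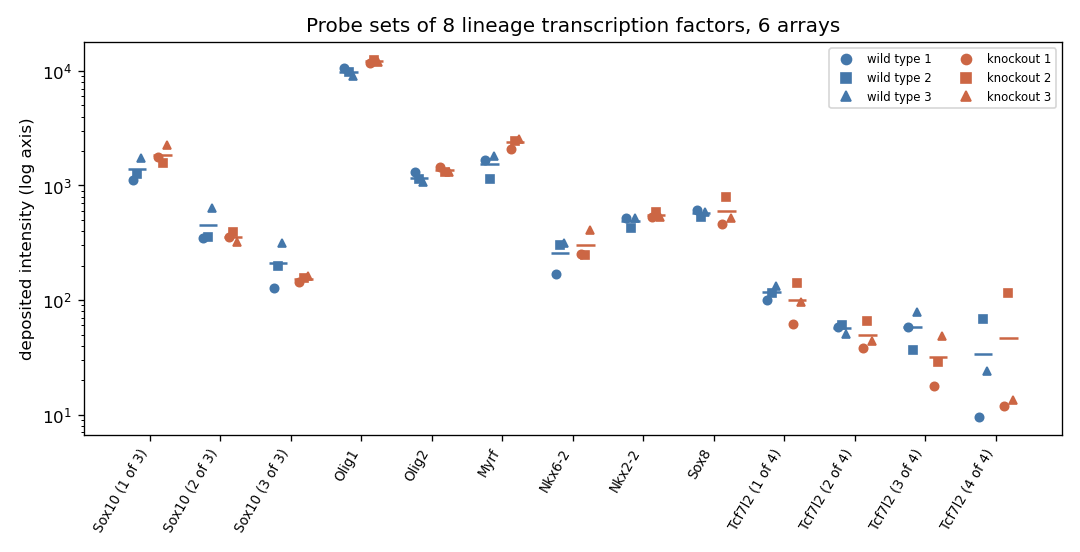
Deposited intensity (log axis) of the 13 member probe sets on each of the 6 arrays, wild type in blue and Nogo-A knockout in orange, with bars at the mean of each genotype (n = 3). Genes with several probe sets are numbered by brightness. Olig1 and Myrf have all 3 knockout points above all wild type points, and the 4 Tcf7l2 probe sets lie at 142 or below.

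Olig1 and Olig2 are the basic helix-loop-helix members. The intensity of Olig1 was 10529, 9719 and 9030.0 in wild type and 11831, 12399 and 12086 in knockout. All 3 knockout arrays lay above all 3 wild type arrays, and the knockout values were close together. The means were 9759 ± 750.1 and 12105 ± 284 (SD, n = 3 each), a fold of 1.27 with a 95% interval of 1.07 to 1.49 (limma, unadjusted p = 0.00941, Benjamini-Hochberg adjusted p = 0.598). Of the 9 tested member probe sets, Olig1 and Myrf, 2 in all, had every knockout array above every wild type array, and 0 had the reverse. Among everything tested, 8.88% were separated with knockout above and 5.87% with knockout below.

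Olig2, the neighbouring gene of Olig1 and the factor that founds the lineage, stood at 1309, 1139 and 1069 in wild type and 1441, 1317 and 1321 in knockout. The lowest knockout value and the highest wild type value were nearly equal, and after scaling they overlapped by 0.0041 on the log2 scale. The fold was 1.18 with a 95% interval of 0.970 to 1.45 (means 1172 ± 123 and 1359.6 ± 70.9, SD, n = 3 each, limma unadjusted p = 0.0895, adjusted p = 0.649). Olig1 and Olig2 thus had the same direction, with wild type replicate 1 the highest and replicate 3 the lowest wild type array in both. On a given array the difference between centred Olig1 and Olig2 was -0.099 to -0.015 in wild type and -0.071 to 0.13 in knockout on the log2 scale, so the genotypes overlapped.

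Sox10, which is needed for terminal differentiation and is also made by Schwann cells of nerve roots, had 3 probe sets that did not move alike. The brightest read 1114, 1272 and 1753 in wild type and 1785, 1559.8 and 2234 in knockout. Wild type replicate 3 lay inside the knockout range and the other wild type arrays below it. Its fold was 1.38 with a 95% interval of 1.07 to 1.79 (means 1379.7 ± 333 and 1859 ± 343, SD, n = 3 each, limma unadjusted p = 0.0183, adjusted p = 0.598). Without wild type replicate 1, wild type replicate 2 or knockout replicate 3 the unadjusted limma p was 0.0748, 0.0534 and 0.101, with log2 changes of 0.35, 0.42 and 0.33 in place of 0.47.

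The middle Sox10 probe set read 345, 358 and 639.8 in wild type and 353, 389 and 320.2 in knockout. Wild type replicate 3 stood apart from the other 5 arrays. The fold was 0.837 with a 95% interval of 0.594 to 1.18 (limma unadjusted p = 0.279, adjusted p = 0.762), and without wild type replicate 3 the log2 change went from -0.26 to 0.0064. The dimmest read 128, 197 and 312 in wild type and 145, 154 and 161 in knockout, with wild type on both sides of a narrow knockout range. Its fold was 0.787 with a 95% interval of 0.467 to 1.33 (limma unadjusted p = 0.337, adjusted p = 0.792), and without wild type replicate 3 its log2 change went from -0.35 to -0.045. That replicate is the array with raised dim intensities, and the part of those intensities in both Sox10 values was not tested.

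On each array, the brightest Sox10 probe set relative to the middle one was -0.33, -0.19 and -0.57 in wild type and 0.32, -0.016 and 0.78 in knockout, as differences of centred log2 values. Relative to the dimmest it was -0.049, -0.49 and -0.68 in wild type and 0.44, 0.16 and 0.61 in knockout. In both pairs every knockout array lay above every wild type array. These pairs were looked at after the probe sets had been seen to disagree, so they carry no test. The mean of the 3 probe sets had a log2 change of -0.045, so the direction for Sox10 depends on which probe set stands for the gene. Which transcript or part of the gene each probe set reads is not given in the sources used here.

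**Figure D2:**
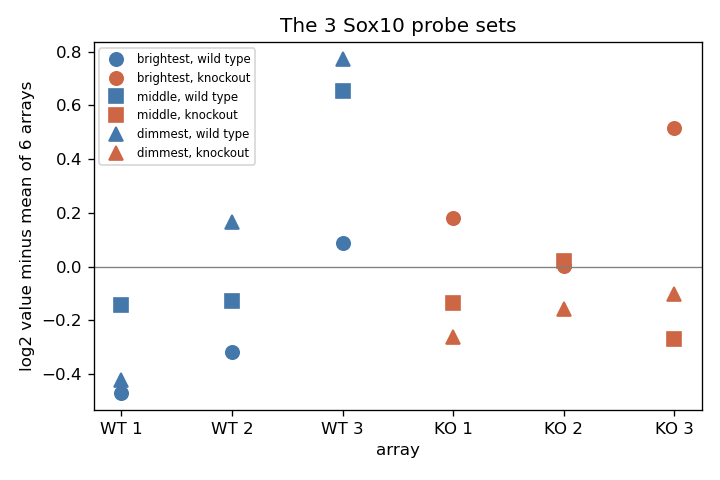
Log2 value of the 3 Sox10 probe sets on each array, minus the mean of that probe set over the 6 arrays, for wild type (WT, blue) and Nogo-A knockout (KO, orange). The middle and dimmest probe sets are highest on wild type replicate 3, while the brightest is highest on knockout replicate 3.

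Schwann cell genes are given beside Sox10. Of the 10 listed, 7 were matched to a tested probe set with 1 symbol, and 3 of these had a log2 change above 0, with a median of -0.035 over the 7. Pmp22, a protein of compact nerve myelin, was 1.39-fold and Ncmap, a membrane protein of myelinating Schwann cells, 1.30-fold, both with no overlap between genotypes and neither past the adjusted threshold. Over all tested probe sets, 56.1% had a log2 change above 0 and 8.88% were separated with knockout above. Cdh19, a cadherin of the Schwann lineage, was 1.21-fold, and Egr2, the factor that drives nerve myelination, 0.815-fold. Summed over the 7, intensity was 16054 to 18475 in wild type and 18898 to 25664 in knockout. Without Pmp22, a split made after the values were seen, the sum of the other 6 was 3694 to 4236 in wild type and 3607 to 4196 in knockout, which overlapped. The part of nerve root tissue in the Sox10 values was not tested. In whole tissue, fewer cells of a type and less RNA per cell cannot be told apart, here or in any result below.

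Myrf, the membrane-bound factor that switches on myelin genes in maturing cells, had the largest fitted log2 change of the 9 tested member probe sets. It read 1668, 1144 and 1819 in wild type and 2096, 2453 and 2568 in knockout. Every knockout array was above every wild type array, with wild type replicate 2 the lowest. The means were 1544 ± 354 and 2372 ± 246 (SD, n = 3 each), a log2 change of 0.67 with a standard error of 0.17, or a fold of 1.59 with a 95% interval of 1.24 to 2.04. The unadjusted p was 0.00183 and the adjusted p 0.598 in limma. Under 17 other settings the log2 change stayed between 0.47 and 0.86, with the unadjusted p under 0.05 in all 17 and the adjusted p between 0.143 and 0.965. Among these, the filters, no trend, the replicate block and the methods' t-test could not move the log2 change by construction. The lowest value, 0.47, came without wild type replicate 2.

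The homeodomain members and Sox8 did not reach an unadjusted p under 0.05. Nkx2-2, which helps precursors to differentiate, read 524, 429 and 522 in wild type and 533, 587 and 532 in knockout. Knockout replicates 1 and 3 lay just above the upper wild type values, and after scaling the genotypes overlapped by 0.0017 on the log2 scale. The fold was 1.14 with a 95% interval of 0.907 to 1.44 (means 492 ± 54.2 and 550.4 ± 31.4, SD, n = 3 each, limma unadjusted p = 0.232, adjusted p = 0.733).

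Nkx6-2, a factor of mature oligodendrocytes and of some ventral neurons, read 167, 299.6 and 312 in wild type and 251, 245 and 409 in knockout. The genotypes were mixed, with the lowest value in wild type replicate 1 and the highest in knockout replicate 3. The fold was 1.19 with a 95% interval of 0.770 to 1.85 (limma unadjusted p = 0.396, adjusted p = 0.818), and its log2 change of 0.25 became -0.015 without wild type replicate 1 and 0.013 without knockout replicate 3.

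Sox8, the relative of Sox10 that is also made by astrocytes, read 614, 531 and 589.6 in wild type and 464, 796 and 522 in knockout. Knockout held both the lowest and the highest array, so that its SD was 177 against 42.3 in wild type. The fold was 1.02 with a 95% interval of 0.753 to 1.38 (limma unadjusted p = 0.894, adjusted p = 0.981). The highest value was on knockout replicate 2, where muscle RNA was also highest, and without that array the log2 change went from 0.027 to -0.21. The part of muscle tissue in this value was not tested.

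**Figure D3:**
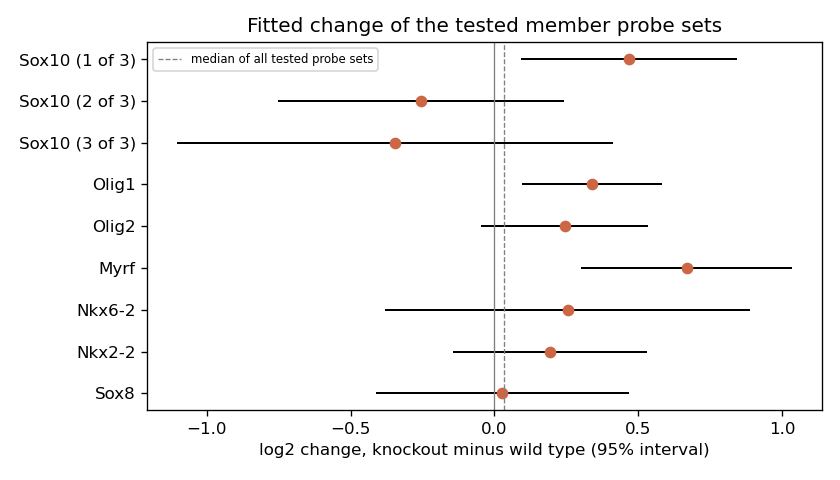
Fitted log2 change, knockout minus wild type, of the 9 tested member probe sets (points) with its 95% interval (lines, limma, n = 3 per genotype). The solid grey line is at 0 and the dashed line at 0.034, the median of all tested probe sets. The intervals of Myrf, Olig1 and the brightest Sox10 probe set (1 of 3) lie above 0, and the other 6 include it.

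Tcf7l2, which marks newly differentiating cells, had 4 probe sets, and each lay below the median of its array on all 6 arrays. The brightest read 101, 116 and 132 in wild type and 62.2, 142 and 96.3 in knockout, and the second 58.2, 60.9 and 50.8 against 38.4, 66.0 and 43.9. The third read 58.0, 36.7 and 78.8 in wild type and 17.9, 28.6 and 48.8 in knockout, and the fourth 9.56, 68.0 and 24.1 against 11.8, 114 and 13.5. Genotypes overlapped in all 4. Among them, knockout replicate 2 was the highest array in 3 of the probe sets. Because all 4 were this dim, no fold is given, and the arrays set no close limit on a change of Tcf7l2. Fitted without a filter on dim probe sets, the limma unadjusted p was 0.578, 0.762, 0.275 and 0.932 from the brightest to the dimmest.

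**Figure D4:**
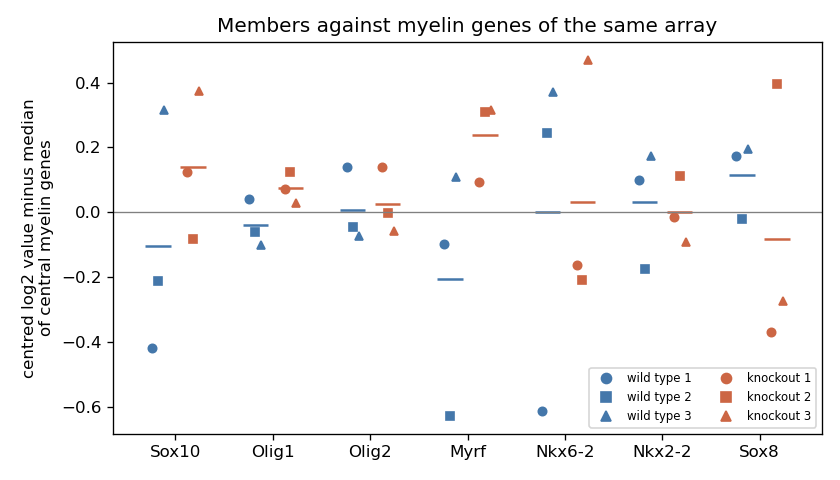
Centred log2 value of the 7 tested members, each at its brightest probe set, minus the median of the central myelin genes on the same array, for 3 wild type (blue) and 3 Nogo-A knockout (orange) arrays, with bars at the means. Points of the genotypes overlap in every member, and the means lie farthest apart in Myrf (-0.20 and 0.24).

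Genes of the central myelin sheath, many of them targets of Myrf and Sox10, had a median log2 change of 0.15 over 22 tested. At an unadjusted p under 0.05 in limma, 7 were higher and 0 lower, and 0 passed the adjusted threshold. Over all tested probe sets the shares were 4.78% higher and 3.48% lower, which also stand behind every list count below. With the 75th percentile filter, 842 of 11676 probe sets were higher and 193 lower at that p, with a median log2 change of 0.075. Whether the myelin genes differ in this from other bright probe sets was not tested. Opalin, a membrane protein of the sheath, read 1776, 1439.5 and 1559 in wild type and 2114, 2151 and 2440.2 in knockout, a fold of 1.43. Sirt2, a deacetylase abundant in myelin, was 1.34-fold, Gsn, the actin-severing gelsolin, 1.28-fold and Mbp, a structural protein that compacts the sheath, 1.25-fold, each with every knockout array above every wild type array. The log2 change was above 0 in 19 of the 22, against 56.1% of all tested probe sets. The summed intensity of the 22 genes was 191321 to 204005 in wild type and 221217 to 237845 in knockout.

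Each member was then set against the myelin genes of its own array, to see whether it moved with them. Relative to their median, Myrf stood at -0.096, -0.63 and 0.11 in wild type and 0.095, 0.31 and 0.31 in knockout on the log2 scale. Wild type replicate 3 overlapped the knockout values, and the difference of 0.44 had an exact two-sided permutation p of 0.2, where 0.1 is the smallest that 3 against 3 arrays allow. Adjusted over the 7 members this p was 0.700. Without wild type replicate 2 the difference was 0.23, and after quantile normalization it was 0.49 with no overlap (exact permutation p = 0.1). Olig1 stood at 0.041, -0.060 and -0.10 in wild type and 0.071, 0.13 and 0.028 in knockout, a difference of 0.12 (exact permutation p = 0.2, adjusted p = 0.700). Sox10 at its brightest probe set differed by 0.24, Nkx6-2 by 0.030, Olig2 by 0.019, Nkx2-2 by -0.031 and Sox8 by -0.20, with exact permutation p-values of 0.4 to 1. Without single arrays, given in brackets, Olig1 was 0.066 (wild type replicate 3). Sox10 was 0.091 (wild type replicate 1), 0.15 (knockout replicate 3) or 0.43 (wild type replicate 3). Sox8 was -0.036 (knockout replicate 1), -0.078 (knockout replicate 3) or -0.43 (knockout replicate 2). Knockout lay wholly below wild type in Sox8 without knockout replicate 2. It lay wholly above in Sox10 without wild type replicate 3 and in Olig2 without wild type replicate 1. The same held in Olig1 without wild type replicate 1, knockout replicate 1 or knockout replicate 3. In Myrf it held without wild type replicate 3, knockout replicate 1 or knockout replicate 3. No member passed in this comparison, which could not have reached 0.05.

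Genes of newly formed oligodendrocytes, the stage at which Tcf7l2 and Myrf come on, were mixed. Of 10 tested, 1 was higher and 2 were lower at an unadjusted p under 0.05 in limma, 0 passed the adjusted threshold, and the median log2 change was 0.11. Ust, a sulfotransferase, read 481, 557 and 883 in wild type and 430.4, 284 and 376 in knockout, a fold of 0.590. Itpr2, a calcium channel of the endoplasmic reticulum, was 0.673-fold, with 330.5, 407 and 538 in wild type and 265, 257 and 307 in knockout. In both genes wild type replicate 3 was the highest array and the genotypes did not overlap. Bcas1, which marks cells starting to myelinate, was 1.26-fold with no overlap, and Gpr17, a receptor of committed precursors, was 1.25-fold with overlap.

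Among 11 tested genes of oligodendrocyte precursors, in which Olig2, Sox10 and Nkx2-2 are also made, 1 was higher and 0 lower at an unadjusted p under 0.05 in limma and 0 passed the adjusted threshold. The median log2 change was 0.11. Matn4, a matrix protein, was 1.43-fold with no overlap, and C1ql1, a secreted synaptic protein, was 0.561-fold with no overlap in the other direction (limma unadjusted p = 0.0510). Tnr, the matrix protein tenascin-R, was 1.19-fold and Cacng4, a regulatory subunit of glutamate receptors, 1.26-fold, both with overlap.

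Other transcriptional regulators of the lineage were taken as a list beside the members. Of 31 tested, 0 were higher and 0 lower at an unadjusted p under 0.05 in limma, and the median log2 change was -0.0043. Thra, a thyroid hormone receptor that promotes maturation, was 1.17-fold and Yy1, a zinc finger factor needed for differentiation, 1.14-fold. Zfp536, a zinc finger factor, was 0.861-fold and Sox5, which holds back differentiation, 0.694-fold. Whether the members differ from this list was not tested.

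Paralogs of the members were mostly dim, and 4 of 11 could be tested. Sox9, the third SoxE gene beside Sox8 and Sox10 and in adult cord a gene of astrocytes, read 416, 445 and 250.04 in wild type and 217, 326 and 339.7 in knockout, a fold of 0.818 with a 95% interval of 0.541 to 1.24. Nkx2-9, a close relative of Nkx2-2, was 1.18-fold. Lef1 and Tcf7l1, of the same family as Tcf7l2, were 0.568-fold and 0.655-fold. Lef1 read 149.5, 271 and 315 in wild type and 88.2, 159 and 158 in knockout, with overlap and with wild type replicate 3 highest (limma unadjusted p = 0.0489, adjusted p = 0.603).

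Of 15 tested Wnt pathway genes, partners or targets of Tcf7l2, 2 were higher and 1 was lower at an unadjusted p under 0.05 in limma and 0 passed the adjusted threshold, with a median log2 change of 0.092. The higher ones were Ctnnb1, the beta-catenin that TCF proteins bind, at 1.18-fold and Tle3, a corepressor that competes for them, at 1.32-fold, and the lower one was Lef1. The related corepressor Tle1 was 1.25-fold with overlap. Both higher genes had every knockout array above every wild type array.

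Markers of other cells were measured beside the members. Over all tested probe sets, 4.78% were higher and 3.48% lower at an unadjusted p under 0.05 in limma. Of 8 fibroblast and meningeal genes tested, 6 were higher and 1 lower at an unadjusted p under 0.05 in limma, with 0 past the adjusted threshold. Their summed intensity was 7791 to 10190.2 in wild type and 11335 to 12700.4 in knockout, led by the collagens Col6a2 at 2.68-fold, Col1a1 at 2.01-fold, Col1a2 at 1.57-fold and Col3a1 at 1.39-fold. Astrocyte genes had 1 higher of 10 tested, Gfap at 1.51-fold with overlap, beside Slc1a3 at 1.19-fold, Aldoc at 1.16-fold and Gjb6 at 0.899-fold. Neuronal genes had 3 higher of 13, Slc32a1, Nefh and Rbfox3 at 1.21-fold, 1.19-fold and 1.26-fold, with Nefl at 1.15-fold. Microglial genes had 1 lower of 9, the complement gene C1qa at 0.772-fold, beside C1qb at 0.792-fold, Aif1 at 0.814-fold and Csf1r at 0.880-fold. Of these 9, 4 had a log2 change above 0 and the median was -0.029. Their summed intensity was 10343 to 14422 in wild type and 10369 to 11682 in knockout, which overlapped.

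Endothelial genes had 1 lower of 9, Pecam1 at 0.662-fold, with Slc2a1 at 0.869-fold, Cldn5 at 0.923-fold and Flt1 at 1.19-fold. Of 5 ependymal genes and 8 muscle genes tested, 0 were higher or lower at that p in limma. Foxj1, Ccdc153, Dynlrb2 and Tmem212 of ependymal cells were 1.23-fold, 0.789-fold, 1.18-fold and 0.892-fold. Myh4, Atp2a1 and Ckm of muscle were 1.86-fold, 1.42-fold and 1.38-fold and Acta1 had a log2 change of 0.49, all with overlap. The summed intensity of astrocyte genes was 80525 to 90435 in wild type and 89275 to 93624 in knockout, and that of neuronal genes 105081 to 127695 and 125197 to 130004. Wild type replicate 3 was the lowest array in both sums and in that of the myelin genes. The part of these cells in the values of Sox8, Nkx6-2 and the other members was not tested.

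The genes with the most similar course over the 6 arrays were found for each tested member among 11225 genes, by the root mean square difference of centred log2 values. Nearest to Myrf, whose own root mean square deviation was 0.40, were Slc29a2, a nucleoside transporter, at 0.10 and S1pr2, a sphingosine-1-phosphate receptor to which Nogo-A can bind, at 0.11. Nearest to Sox10 at its brightest probe set were Pcsk1n and Pipox, at 0.050 and 0.083 against a deviation of 0.32. Eid1 and Hspg2 were nearest to Olig1 at 0.023 and 0.042, and Rabgef1 and Urod to Olig2 at 0.028 and 0.029. Csnk1d and Smim7 were nearest to Nkx2-2 at 0.035 and 0.044, Dagla and Gas8 to Nkx6-2 at 0.10 and 0.11, and Celf3 and Cap1 to Sox8 at 0.068 and 0.074. With 6 arrays and this many genes, some closely similar courses are found for any gene.

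**Figure D5:**
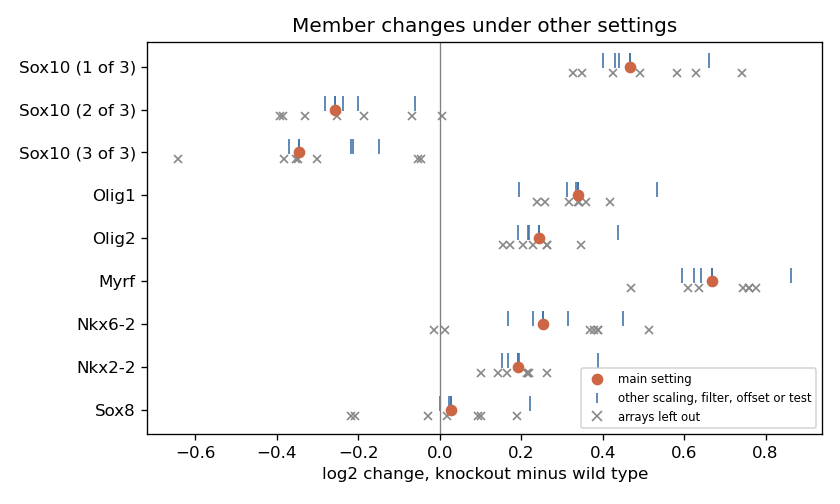
Log2 change, knockout minus wild type, of the 9 tested member probe sets in the main setting (circles), under another scaling, filter, offset or test (ticks) and with arrays left out (crosses). Myrf, Olig1, Olig2, Nkx2-2 and the brightest Sox10 probe set stay above 0 in every setting run, while Sox8, Nkx6-2 and the middle Sox10 probe set cross it. Ticks of the filters, no trend, the replicate block and the methods' t-test lie at the main value by construction.

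Across the settings run, direction was kept in 6 of the 9 tested member probe sets. The log2 change was 0.20 to 0.53 in Olig1 and 0.15 to 0.44 in Olig2 over 17 alternatives each, 0.10 to 0.39 in Nkx2-2 over 16, 0.33 to 0.74 in the brightest Sox10 probe set over 17, and -0.64 to -0.045 in the dimmest over 16. The unadjusted p of Olig1 was under 0.05 in 17 of 17, that of the brightest Sox10 probe set in 11 of 17 and that of Olig2 in 2 of 17. No member probe set reached an adjusted p under 0.05 in any setting, and the lowest adjusted p was 0.111, for the brightest Sox10 probe set without both arrays high in muscle RNA.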

How the data were processed

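RNA of 6 whole spinal cords was measured on 1 array each. The deposited values were linear intensities, which the authors made with MAS 5.0 in GCOS 1.4, scaled to a common target. The tools are as given per the submitters' processing notes and in the design text. The authors' GeneSpring 7.2 steps are not in these values, and present calls were not used here. Probe sets were named by GEO's platform annotation, with symbols brought up to date by gene ID in a RefSeq table of GRCm38.p6 (34741 of 34945 probe sets with 1 symbol matched). A probe set was tested where at least 2 of 3 arrays of a genotype reached their own 50th percentile, after 64 control probe sets were left out. Each array was divided by its median over the tested probe sets, following the order of steps in the series' design text, and log2 values were fitted with lmFit and eBayes with a trend in limma 3.58.1 (R 4.3.3). Benjamini-Hochberg adjustment ran over all 23525 tested probe sets with a threshold of 0.05, and intervals are 95% intervals of that fit. No depth exists for arrays, and 3 animals per genotype limit the precision. The limma p-values set the genotype difference against the spread between animals of a genotype, moderated by the trend over all tested probe sets. They cover these 6 animals only.

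A gene in a list stood at its brightest tested probe set, and up to 4 genes per list with the smallest p were named, with the nearest genes by course. Myelin-relative values were tested by exact permutation. On simulated data for this comparison over 23525 probe sets the fit recovered 9.85% of 1.5-fold, 43.6% of 2-fold and 78.2% of 4-fold changes. The members, lists and settings were chosen with earlier results of these data known. Promoter windows came from a RefSeq table. Alternatives were 3 scalings, 3 filters, an offset of 0.25, no trend, the replicate block, the methods' t-test, the mean of all probe sets, and arrays left out.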

Additional observations from a re-analysis of the deposited data

How the results depend on the processing

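No member probe set passed the adjusted threshold under any alternative. Over all probe sets, the 1 adjusted call became 0 with no trend or the methods' t-test, 4 with the replicate block, 0 to 3 without single arrays, and 3 without both arrays high in muscle RNA. The 1944 calls at an unadjusted p under 0.05 became 3070.0 with the median of all probe sets, 3656 with no filter, 2926 and 1035 with the 25th and 75th percentile filters, 1222 with the methods' t-test, 919 to 3580.0 without single arrays, and 2989 without both arrays. The replicate block gave 2157 of them and 3 among the members. Whether replicate numbers pair the animals is not stated in the labels, and correlations of deviations did not settle it. Those of same-numbered arrays were -0.035, 0.074 and 0.11. Wild type replicate 1 correlated best with knockout replicate 2 (0.080), while wild type replicates 2 and 3 correlated best with the knockout array of their own number. Signs turned, within the given ranges without single arrays, in the middle Sox10 probe set (-0.39 to 0.0064, highest without wild type replicate 3), Nkx6-2 (-0.015 to 0.39, lowest without wild type replicate 1) and Sox8 (-0.21 to 0.19, below 0 without wild type replicate 2 or knockout replicate 2). Sox8 was -0.22 without both muscle arrays, and Sox10 as the mean of its probe sets was -0.045. Relative to myelin genes, Sox10 turned to -0.27 with that mean, Nkx2-2 to 0.091 after quantile normalization and Nkx6-2 to -0.050 with the offset. Without single arrays these relative values were 0.091 to 0.43 in Sox10, 0.23 to 0.58 in Myrf, 0.066 to 0.16 in Olig1, -0.43 to -0.036 in Sox8, -0.039 to 0.090 in Olig2, -0.27 to 0.20 in Nkx6-2 and -0.13 to 0.039 in Nkx2-2. Where the construction of an alternative, such as fewer arrays or other probe sets tested, does not show it, the cause was not tested.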
